A study of Mus musculus with 12 samples.

Results

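The genes described here encode the proteins of the cytosolic ribosome. They were taken from the mouse cortex count table by symbol, as every gene named Rpl or Rps in the standard way (Rpsa and the stalk genes Rplp0, Rplp1 and Rplp2 included) whose CPM (its read count scaled by the size of the library) averaged at least 1 over the 12 libraries. Of 83 matching symbols, 78 met that level, out of 27179 genes in the table. All 78 passed the low-count filter that left 15298 genes for testing. They comprise 43 proteins of the large subunit, 32 of the small subunit and the 3 stalk genes.

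RNA was sequenced from the cortex of 12 mice of 3 genotypes, with 4 libraries per genotype. The KO mice were null for progranulin (Grn-/-), the secreted and lysosomal protein whose partial loss in people causes frontotemporal dementia, and were 282 to 308 days old, with 2 labelled female and 2 labelled male. The MUT mice lacked mouse Grn in the same way and carried in addition a mutant human progranulin allele (Grn-/-; GRNmEx5). They were 272 to 309 days old, with 3 labelled female and 1 labelled male. The WT mice (Grn+/+) comprised replicate 1, labelled female and 287 days old, and replicates 2 to 4, labelled male and 375 days old. The labels do not state the copy number or integration site of the human allele, the background strain or the litters.

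Each ribosome carries a single copy of nearly every ribosomal protein, so the genes are expressed together and strongly in most cells. Their mRNAs are short and begin with a run of C and T bases at the start of transcription, the terminal oligopyrimidine (TOP) tract. Through this tract the kinase mTOR and the RNA-binding protein Larp1 control how well these mRNAs are translated and how stable they are. In neurons, ribosomal protein mRNAs are found in dendrites and axons as well as in the cell body.

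The TOP tract can be read in the promoter sequences. RefSeq windows (GRCm38.p6, the assembly also called mm10) from 250 bases before to 50 bases after the annotated start were matched by gene ID for 57 of the 78 genes, which gave 68 windows. The windows below show 45 bases before and 25 bases from the start, in the direction of transcription, for Rps9, Rpl37 and Rps4x, called higher in KO, for Rps6, Rps27, Rpl28 and Rpl35 as clear cases of the tract, and for Rpl15, the member with the lowest KO over WT fold change. Capitals mark a run of 8 or more C or T that starts within 20 bases of the annotated start.
Rps9: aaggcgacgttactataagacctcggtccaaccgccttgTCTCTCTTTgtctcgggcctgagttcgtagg
Rps6: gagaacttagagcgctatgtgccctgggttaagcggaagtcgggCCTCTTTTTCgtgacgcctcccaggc
Rps27: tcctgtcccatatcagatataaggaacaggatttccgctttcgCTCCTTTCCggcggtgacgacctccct
Rpl28: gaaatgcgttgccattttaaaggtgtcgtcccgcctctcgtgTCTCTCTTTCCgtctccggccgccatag
Rpl35: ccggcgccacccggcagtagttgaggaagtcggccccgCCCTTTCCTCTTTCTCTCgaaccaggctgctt
Rpl15: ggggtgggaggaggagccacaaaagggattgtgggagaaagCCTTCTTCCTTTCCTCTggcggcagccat
Rpl37: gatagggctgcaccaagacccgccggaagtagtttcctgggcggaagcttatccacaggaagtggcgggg
Rps4x: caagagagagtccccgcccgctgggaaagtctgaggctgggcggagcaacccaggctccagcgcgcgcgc

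The windows lie at chr7:3703996-3704065 on the plus strand for Rps9, chr4:86857343-86857412 on the minus strand for Rps6 and chr3:90213624-90213693 on the minus strand for Rps27. Those of the large-subunit genes lie at chr7:4792920-4792989 (plus) for Rpl28, chr2:39005107-39005176 (minus) for Rpl35, chr14:18270962-18271031 (minus) for Rpl15 and chr15:5116568-5116637 (plus) for Rpl37. That of Rps4x lies at chrX:102189367-102189436 (minus). The run spans the annotated start in the 6 windows with capitals, and it is 17 bases long in Rpl15 and 18 in Rpl35. In the windows of Rpl37 and Rps4x no such run starts within 20 bases of the annotated start, which says only that these letters are not in this window. The window of Rps4x lies wholly upstream of the exons that were counted, which begin at chrX:102189306. It therefore does not show the start of the counted gene.

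Over the 68 windows, 45.6% held such a run, against 17.2% of all 32851 promoter windows of the table. CCGGAAG on either strand, a core of the sites that ETS factors bind, was in 36.8% of them, against 8.86% of all windows. GGGCGG on either strand, a core of Sp1 sites, was in 60.3% against 35.7%, and AAGATGG on either strand, a core of YY1 sites that can overlap the start codon, was in 16.2% against 6.34%. TATAAA between 40 and 20 bases before the start was in 0% against 1.99%. The fold changes described below had close medians with and without the run of C or T. The median log2 fold change of KO over WT was 0.18 in the 30 genes with the run and 0.17 in the 27 genes without it. For MUT over WT these medians were 0.05 and 0.07, and for MUT over KO -0.11 and -0.11. A gene without the run in its windows may still carry a TOP tract, so this split does not test the tract.

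Before the members, the libraries themselves were checked. Library totals were 16381221 to 20782195 counts. Grn averaged 12.8 ± 1.38 CPM in KO, 13.5 ± 1.59 in MUT and 58.0 ± 1.35 in WT (SD, n = 4 each), a log2 fold change of -2.20 in KO (edgeR adjusted p = 4.78e-08) and -2.15 in MUT (adjusted p = 6.73e-08), so the WT label was borne out in all 4 libraries. Grn did not tell KO from MUT (log2 fold change of MUT over KO 0.06, adjusted p = 0.993), and the human allele was not measured, so these 2 labels were not checked against each other. The 6 libraries labelled female had 1 to 19 Xist counts and 1156 to 1654 counts of the Y-linked Ddx3y, and the 6 labelled male had 9390 to 12900 and 0 to 4, the opposite of the labels in all 12. "Labelled sex" below therefore names a split of the libraries, not the animals' sex.

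The WT libraries differed in the tissue they held. The level of 18 kept striatal neuron markers (mean log2 CPM, centred on each gene's mean) was -0.72 to 0.15 in KO, -0.63 to -0.28 in MUT and -0.59 in WT replicate 1, but 0.60, 1.33 and 2.16 in WT replicates 2, 3 and 4, the libraries of 375 days. Ppp1r1b (DARPP-32, a signalling protein of striatal projection neurons) was at 68.1 to 116 CPM in KO, 59.7 to 72.5 in MUT, 63.3 in WT replicate 1 and 155 to 444 in WT replicates 2 to 4. Transcripts of the choroid plexus, led by Ttr, were high in KO replicate 3, MUT replicate 1 and WT replicate 4 (1839, 1283 and 598 CPM), against 3.71 to 42.7 in the other 9 libraries. The medians over the 78 genes, over other short genes and over the main gene lists are therefore given below also for subsets of the libraries; values of single members are those of all 12 libraries unless a subset is named.

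Ribosomal protein genes were among the most abundant transcripts per length. Levels between genes are given as TPM, counts divided by the summed exon length of each gene and scaled to the same total in every library. The 78 genes held 2.46% of all TPM, and 60 of them were among the 1000 genes with the highest TPM. Their median was 255 TPM, with quartiles of 193 and 384. Rplp1, a protein of the stalk that recruits elongation factors, was highest at 1379 ± 76.8 TPM (SD, n = 12). Rps15 followed at 1059 ± 66.3 and Rps21 at 843 ± 66.0 TPM, both small-subunit proteins. Rps15 and Rps21 lay further apart than their SDs.

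At the low end stood 2 paralogs and a gene with a long annotation. Rps27l, a p53-induced paralog of Rps27, was at 39.5 ± 6.34 TPM, and Rps4l, a paralog of Rps4x, at 47.6 ± 10.2 TPM. Rps15a was at 53.8 ± 3.08 TPM, over a summed exon length of 5136 bases, the longest of the 78. Neighbouring values among these 3 differed by less than the SD of Rps4l. The main copies were far above their paralogs, with Rps27 at 370.1 ± 36.7 and Rps4x at 389.6 ± 38.0 TPM. How reads shared by near-identical copies were counted is not given, so the levels of paralogs are uncertain. The 33 ribosomal protein pseudogenes checked in the table held 1243 counts over the 12 libraries, 0.0835% of those on the 78 genes.

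The lowest member by the rule that chose them was Rps27l at 6.66 CPM, followed by Rps4l at 16.2 and Rpl39 at 17.0. The 5 symbols outside it were all far lower. Rpl3l, the paralog of Rpl3 known from striated muscle, was at 0.434 CPM, from 97 counts in all 12 libraries together, and Rpl6l, Rpl32l and Rpl39l were at 0.254, 0.126 and 0.0551 CPM. Rpl10l, the testis paralog of Rpl10, had 3 counts in the 12 libraries.

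Across the 12 libraries the 78 genes varied little. The median coefficient of variation of their TPM was 6.91%, and it was under 10% in 74 of them. The share of all counts that fell on them was 0.713%, 0.729%, 0.744% and 0.691% in KO replicates 1 to 4, 0.703%, 0.670%, 0.666% and 0.685% in MUT, and 0.664%, 0.608%, 0.601% and 0.613% in WT. The KO libraries were all above the WT libraries and the MUT libraries were too, while KO and MUT overlapped. Of the WT libraries, replicate 1 lay next to the lowest MUT library and the other 3 lay apart from all others.

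**Figure D1:**
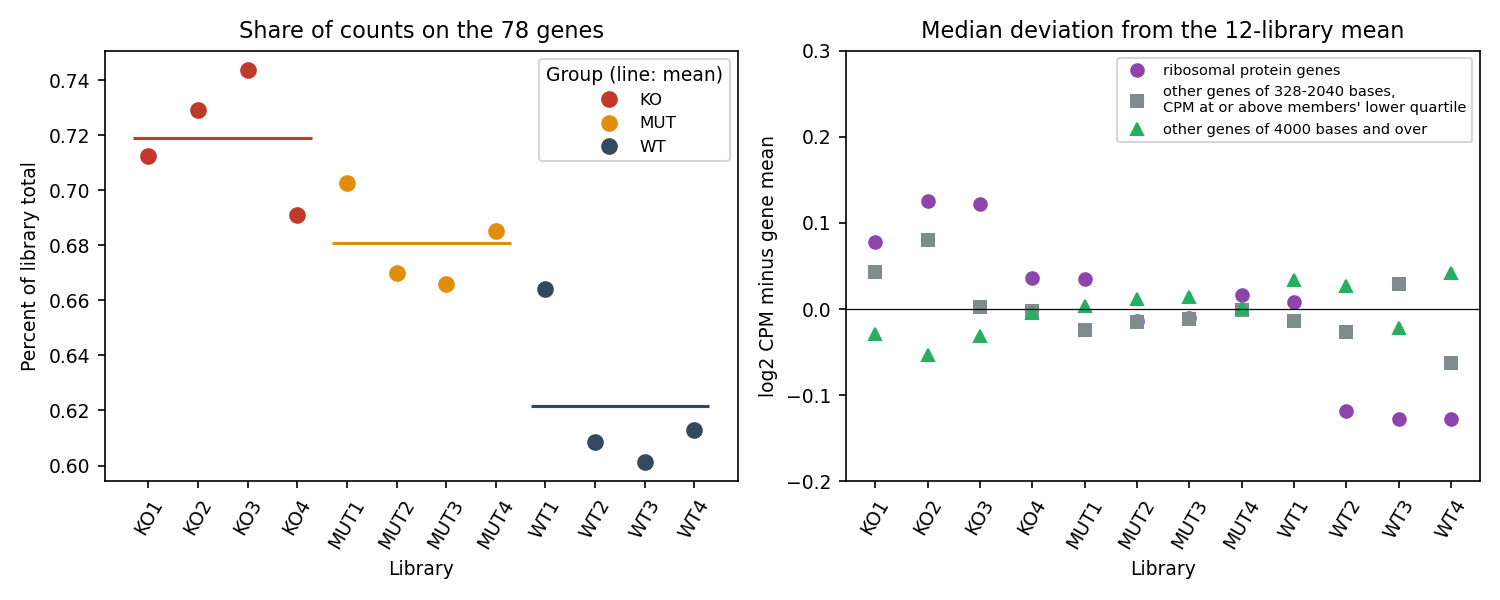
Left, percent of each library's counts on the 78 ribosomal protein genes (line: group mean, n = 4 each); right, the median over genes of log2 CPM minus the gene's mean over 12 libraries, for the 78 genes, for other genes of 328 to 2040 bases with a CPM at or above the members' lower quartile, and for other genes of 4000 bases and over. The 3 WT libraries of 375 days are the lowest for ribosomal protein genes, at about -0.12 to -0.13, while WT replicate 1 is at 0.0085, within the range of the MUT libraries.

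Measured as a median over genes, WT replicate 1 lay among the MUT libraries and KO lay just above both. The median deviation of the 78 genes from their 12-library means, on the log2 CPM scale, was 0.078, 0.13, 0.12 and 0.036 in KO replicates 1 to 4, 0.035, -0.014, -0.011 and 0.017 in MUT, and 0.0085, -0.12, -0.13 and -0.13 in WT. In KO replicates 2 and 3, 77 of the 78 genes were above their own mean. In WT replicates 2, 3 and 4 only 5, 2 and 6 genes were, against 43 in WT replicate 1. WT replicate 1 was above the other 3 WT libraries in 65 of the 78 genes and below them in 0. Over all kept genes, 31.2% had WT replicate 1 above the other 3. The youngest WT library, the only one without the striatal signal and the only one labelled female is this same library, so age, labelled sex and dissection cannot be told apart within WT.

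**Figure D2:**
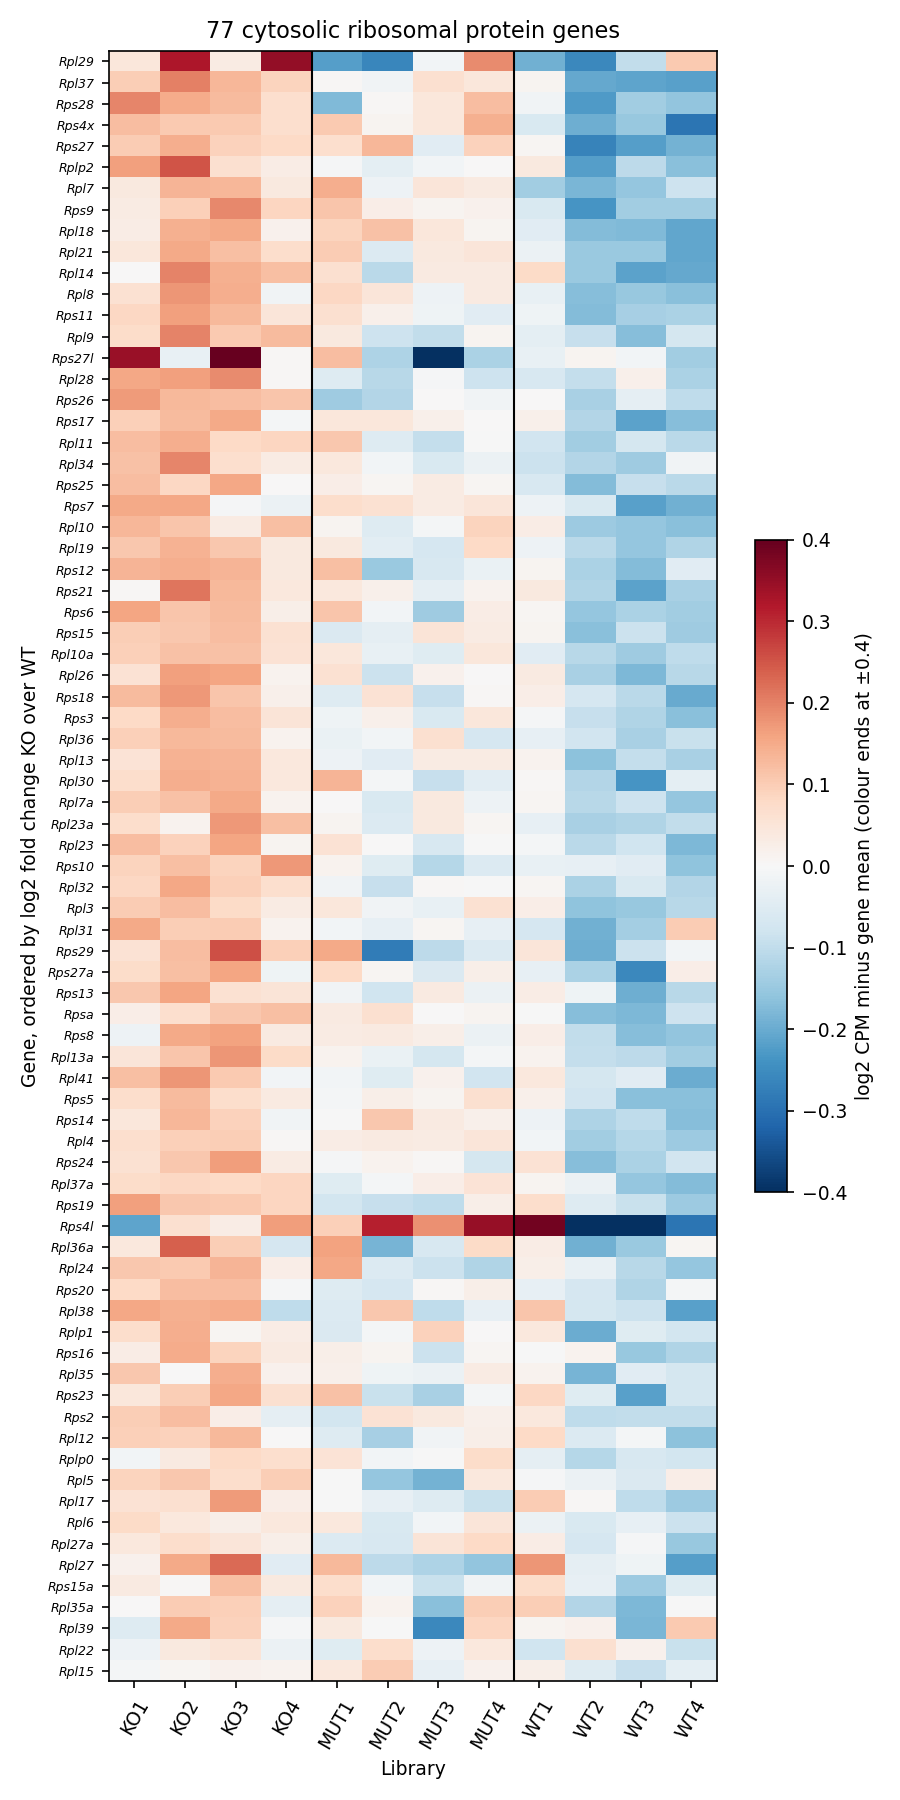
Log2 CPM minus the gene's mean over the 12 libraries for 77 of the 78 genes (rows, ordered by the KO over WT fold change) in each library (columns, KO, MUT and WT from left to right; colour ends at ±0.4). KO columns are mostly above the mean and WT replicates 2 to 4 mostly below it, with WT replicate 1 close to it; Rps4l and Rps27l run against their neighbours in several libraries.

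In KO cortex, set against WT, all 78 ribosomal protein genes had a log2 fold change above 0, and 4 of them, Rps4x, Rps9 and Rpl37 among them, passed the test (edgeR quasi-likelihood, adjusted p under 0.05). Over all 15298 kept genes 51.3% were above 0, and 0.49% were called, 0.144% higher and 0.346% lower. The differences were small and alike. The median log2 fold change over the 78 was 0.17, with quartiles of 0.15 and 0.20, against a median of 0.0047 over all kept genes. The smallest was 0.03 in Rpl15 and the largest 0.31 in Rpl29. These p-values speak only to the scatter from library to library, since the labels do not say how the animals were related. In bulk tissue fewer cells of a type and less RNA per cell cannot be told apart.

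Rps4x is an X-linked small-subunit protein. It was at 136, 134, 134 and 130.5 CPM in KO, 134, 125, 129 and 137 in MUT, and 119, 109, 112 and 102 in WT. Every KO and every MUT library lay above every WT library. Its log2 fold change in KO was 0.26 (SE 0.05, edgeR adjusted p = 0.0440).

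Rps9 is a small-subunit protein that binds near the mRNA channel. It was at 119.7, 125, 134 and 124 CPM in KO, 126, 119, 118 and 118 in MUT, and 112, 99.4, 106 and 106 in WT, again without overlap between the mutant libraries and WT. Its log2 fold change in KO was 0.23 (SE 0.04, edgeR adjusted p = 0.0443).

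Rpl37, a zinc-binding protein of the large subunit, was at 89.7, 96.4, 91.7 and 89.1 CPM in KO, 83.9, 83.0, 87.4 and 86.4 in MUT, and 84.3, 72.7, 72.4 and 72.0 in WT. KO stood above both other groups without overlap. Its log2 fold change in KO was 0.28 (SE 0.05, edgeR adjusted p = 0.0484). WT replicate 1 stood well above the other 3 WT libraries, which lay within 1 CPM of each other.

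The 4 calls stood just under the threshold, and the genes next to them just above it. Rpl7 had a log2 fold change of 0.23 (adjusted p = 0.0598) and Rps27 one of 0.25 (adjusted p = 0.0606), by the same edgeR test. At an unadjusted p under 0.05, 62 of the 78 genes were higher in KO and 0 lower, against 7.92% and 9.71% of all kept genes. In 47 of the 78, all 4 KO libraries were above all 4 WT libraries, against 4.29% of all kept genes, and in 0 were they all below, against 4.82%. By DESeq2, 35 of the 78 were called higher in KO, against 1.43% of all genes it tested.

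The number of calls turned on single libraries. Without WT replicate 1, 52 of the 78 genes were called higher in KO, against 4.79% of all genes tested. The count was 0 without any single one of KO replicates 1 to 3, MUT replicates 2 to 4 and WT replicates 2 and 4. It was 2 without WT replicate 3 (0.142% of all genes tested called higher) or MUT replicate 1 (0.117%), and 7 without KO replicate 4 (0.181%). The direction did not turn on them, since the median log2 fold change stayed between 0.15 and 0.22 whichever library was left out.

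**Figure D3:**
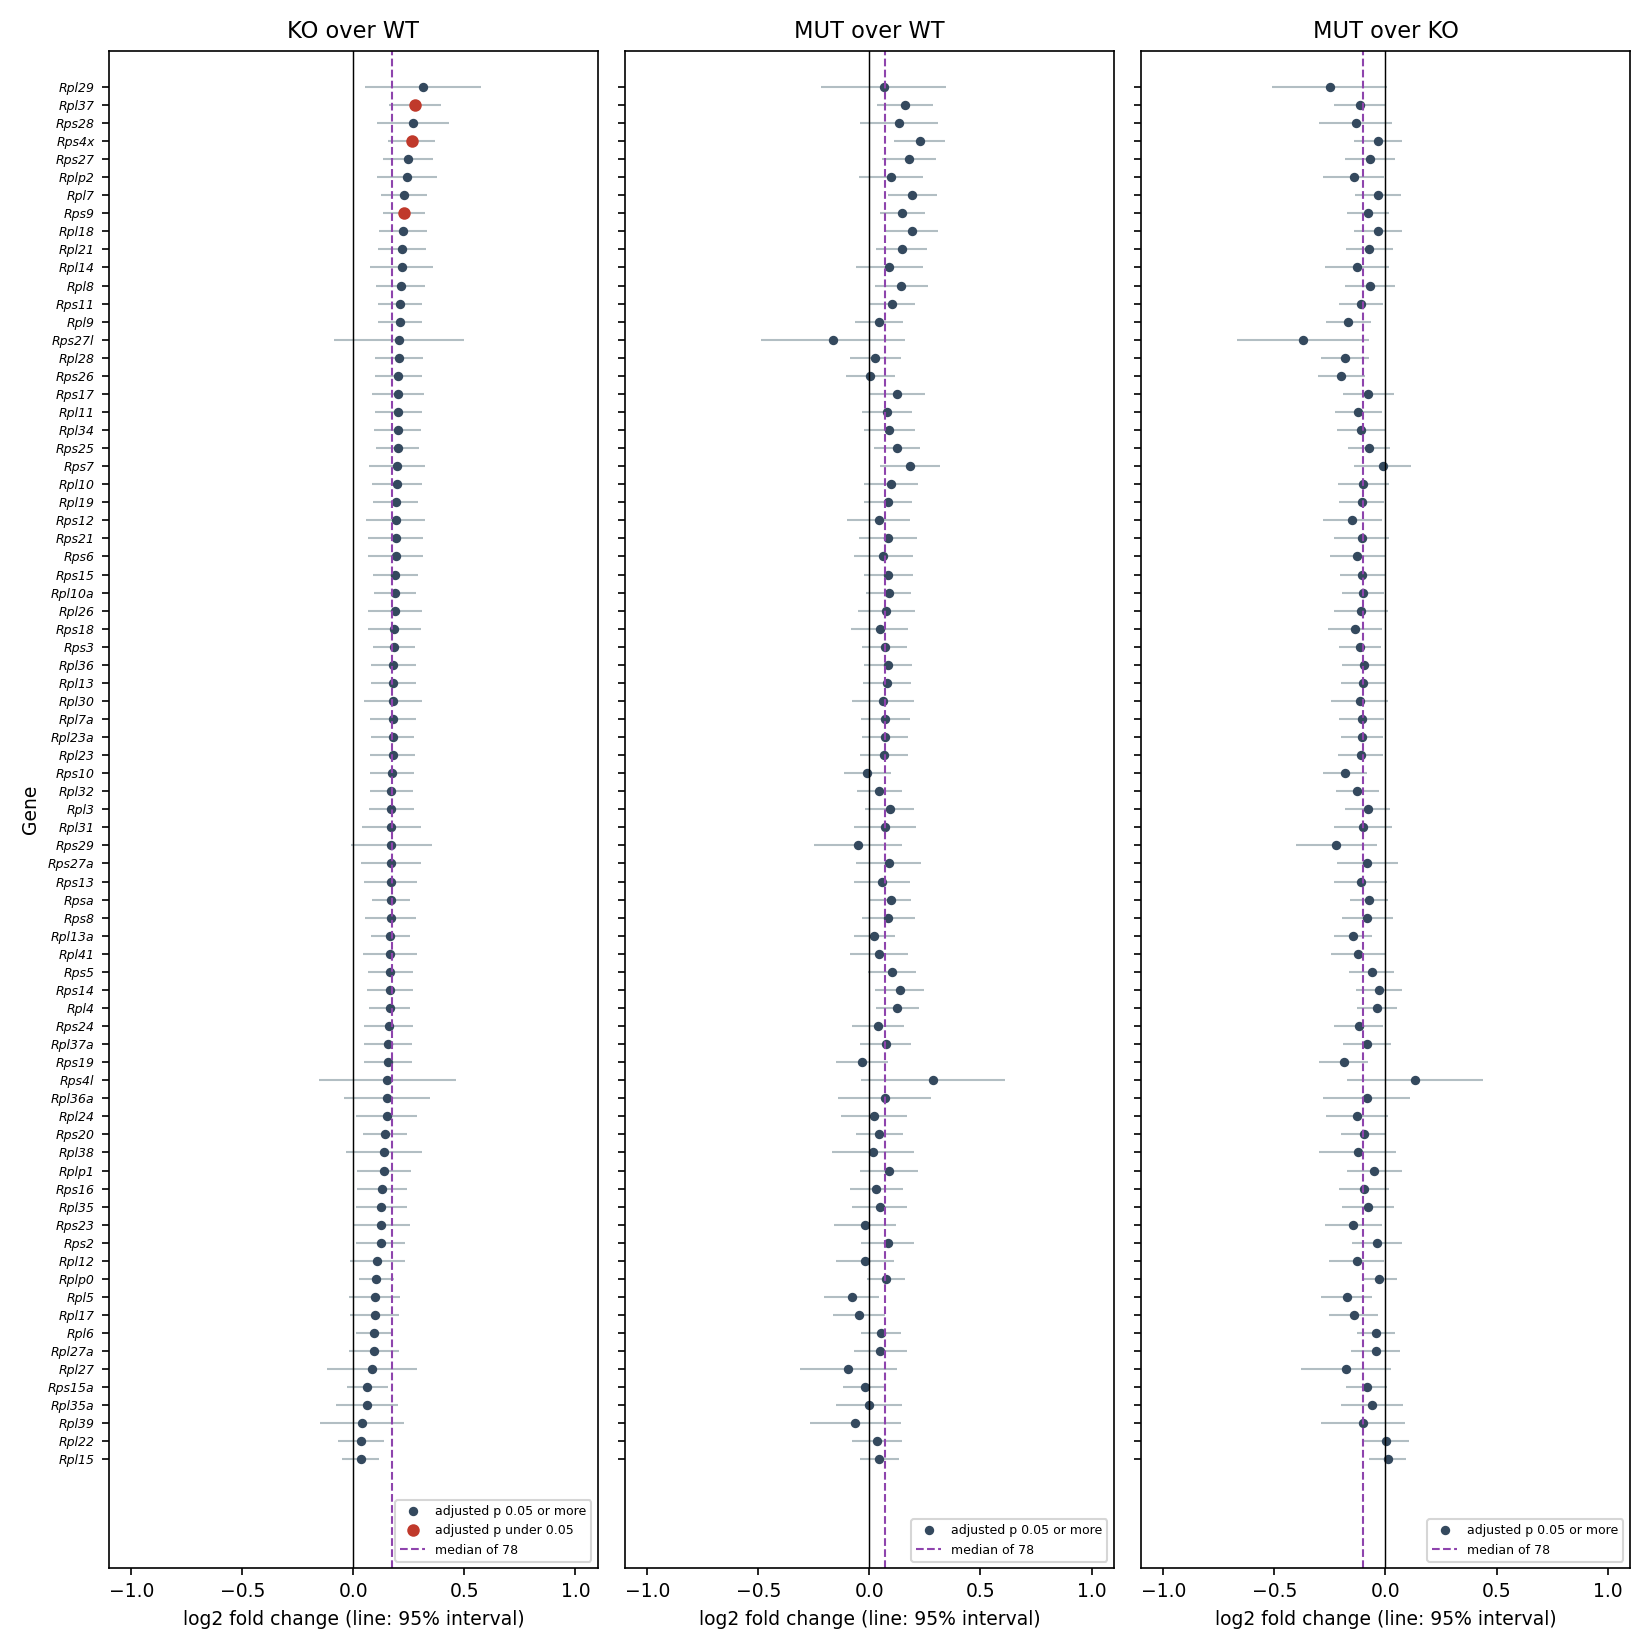
Log2 fold change with its 95% interval (edgeR) of 77 of the 78 genes in KO over WT, MUT over WT and MUT over KO, with genes in the same order in each panel; larger red points are the 3 genes drawn with adjusted p under 0.05 and the dashed line is the median of the 78. All points of the first panel lie above 0, around 0.17; the second centres on 0.07 and the third on -0.10.

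Within subsets of the libraries the KO over WT median kept its sign and changed in size. In libraries labelled male, where all 3 WT libraries are the ones of 375 days, it was 0.23 with 38 genes called higher, against 3.51% of all genes tested. In libraries labelled female, where WT is replicate 1 alone, it was 0.08, with 69 of 78 genes above 0 and 0 called. Among libraries under 310 days, where WT is again replicate 1, it was 0.09, with 69 of 78 above 0. With age added to the model it was 0.08, and with the striatal level added 0.14, with 77 of 78 above 0, and 0 called in both. The age term rests largely on WT replicate 1 (287 days) against the WT libraries of 375 days, so that fit is not separate from the 2 subsets with WT replicate 1 alone. Without the 3 libraries high in choroid plexus genes the median was 0.17, with 0 called.

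Large and small subunits had like medians. The median log2 fold change of KO over WT was 0.18 over the 43 large-subunit genes and 0.18 over the 32 small-subunit genes, with 2 called in each. Over the 3 stalk genes it was 0.14, with 0 called. Rplp0, the stalk's base and a common reference gene in quantitative PCR, averaged 113 ± 3.11 CPM in KO, 112 ± 3.24 in MUT and 104 ± 2.32 in WT (SD, n = 4 each). Its KO and MUT libraries all lay above its WT libraries, with a log2 fold change in KO of 0.10 (SE 0.04, adjusted p = 0.172).

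Other members often used as reference genes, or known for roles outside the ribosome, followed the same pattern without passing the test. Rpl13a, also a translational repressor in macrophages, averaged 251 ± 9.74 CPM in KO, 229.9 ± 5.64 in MUT and 221 ± 10.4 in WT, and its log2 fold change in KO was 0.17 (adjusted p = 0.0758). Rps18 averaged 67.6 ± 2.95 CPM in KO, 61.8 ± 2.81 in MUT and 59.1 ± 3.85 in WT, a log2 fold change of 0.18 in KO (adjusted p = 0.120). In Rpl13a KO stood above both other groups without overlap, while in Rps18 KO replicate 4 lay under 1 WT and 1 MUT library.

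Rps6, the substrate whose phosphorylation is read as a sign of mTOR activity, was at 49.7, 48.1, 48.6 and 45.3 CPM in KO, 48.1, 44.2, 40.4 and 45.4 in MUT, and 44.8, 40.02, 40.8 and 40.5 in WT. KO lay above WT without overlap and MUT spanned both, with a log2 fold change in KO of 0.19 (adjusted p = 0.120). Rpsa, which also acts as a laminin receptor at the cell surface, averaged 129 ± 3.73 CPM in KO, 124 ± 2.47 in MUT and 113 ± 6.62 in WT, with a log2 fold change in KO of 0.17 (adjusted p = 0.0758). Both mutant groups lay above WT in every library of Rpsa.

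Rpl3 and Rpl4, which reach deep into the large subunit, were close to the median of the 78. Rpl3 averaged 185 ± 5.05 CPM in KO, 177 ± 5.53 in MUT and 164 ± 10.1 in WT, with a log2 fold change in KO of 0.17 (adjusted p = 0.0980). Rpl4, whose loop lines the exit tunnel, averaged 441 ± 13.0 CPM in KO, 432 ± 2.46 in MUT and 392.3 ± 17.3 in WT, with a log2 fold change in KO of 0.16 (adjusted p = 0.0842). In Rpl3 and Rpl4 the KO libraries did not overlap WT.

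The members nearest to no difference were all of the large subunit. Rpl15 was at 73.5, 74.4, 74.8 and 74.7 CPM in KO and 75.2, 71.4, 69.4 and 72.0 in WT, an overlap. Rpl22, which has the second longest exon length of the 78, averaged 83.4 ± 2.24 CPM in KO, 83.4 ± 3.17 in MUT and 81.6 ± 4.18 in WT, with a log2 fold change of 0.03 in KO (95% interval -0.07 to 0.14). Rpl39 averaged 17.6 ± 1.13 CPM in KO, 16.7 ± 1.70 in MUT and 16.9 ± 1.38 in WT, with a log2 fold change of 0.04 in KO (95% interval -0.15 to 0.23). These intervals take in the median of the 78 for Rpl39 and not for Rpl22.

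Rpl29 had the largest fold change and a wide spread. It was at 35.0, 42.4, 34.7 and 43.2 CPM in KO, 29.1, 28.3, 33.6 and 38.6 in MUT, and 29.7, 28.3, 31.6 and 36.5 in WT. The groups overlapped, with WT replicate 4 above 2 of the KO libraries. Its log2 fold change in KO was 0.31 (SE 0.12, adjusted p = 0.202).

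**Figure D4:**
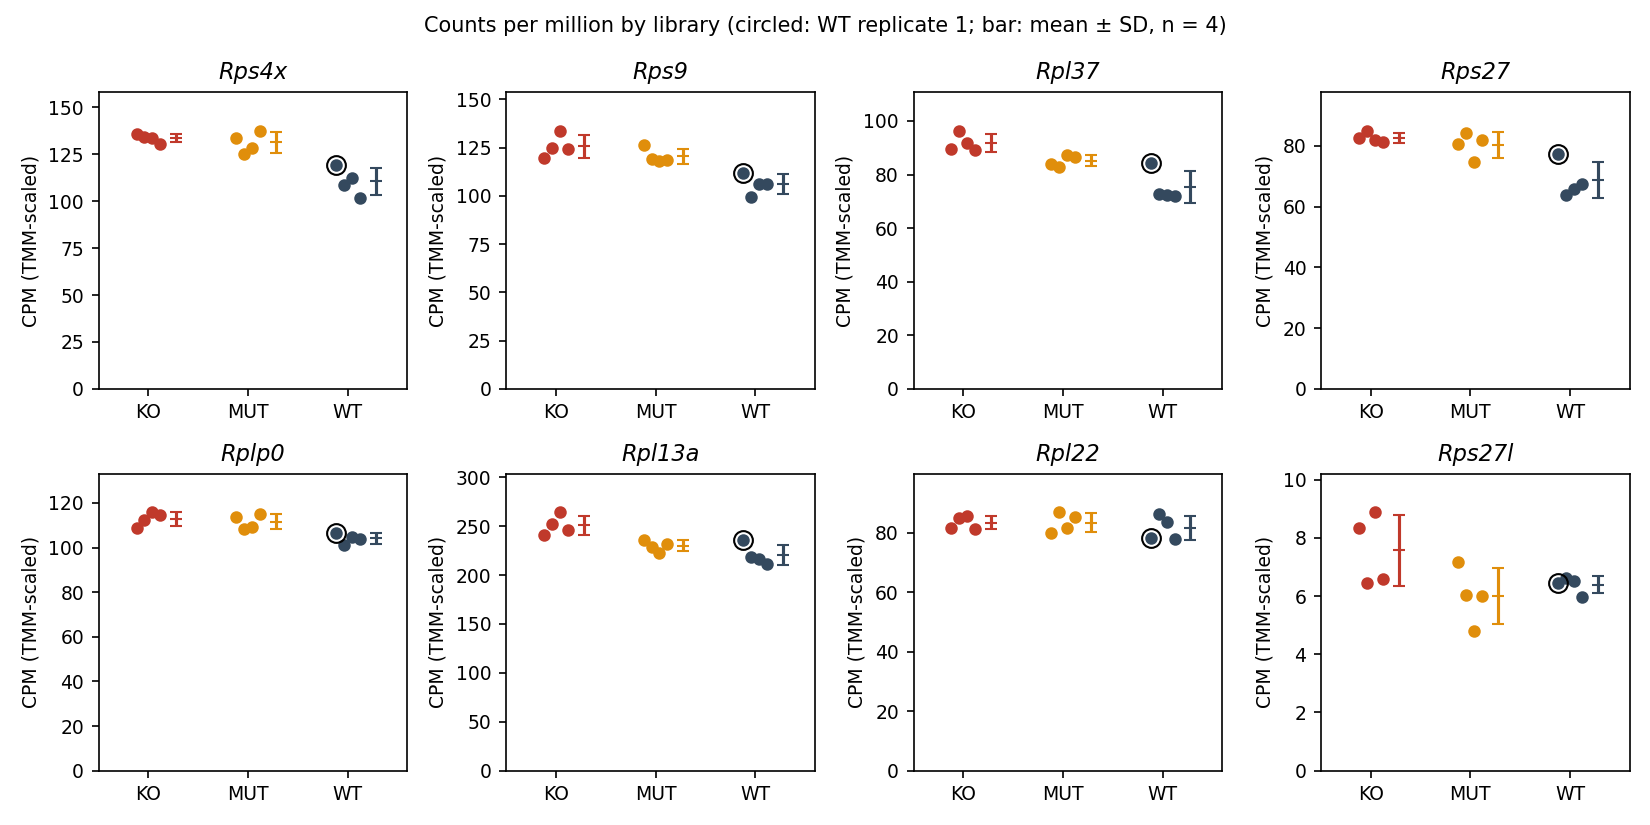
CPM (TMM-scaled) in each library for Rps4x, Rps9 and Rpl37, called higher in KO, and for 5 other members, with the group mean ± SD beside the points (n = 4 each) and WT replicate 1 circled. In Rpl37 the circled library is at 84.3 CPM, against 72.0 to 72.7 in the other WT libraries.

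In MUT cortex, set against WT, 66 of the 78 genes were above 0 and 0 passed the test (edgeR quasi-likelihood). Over all kept genes 51% were above 0 and 0.0131% were called, all of those lower. The median log2 fold change of the 78 was 0.07, against 0.0036 over all kept genes. At an unadjusted p under 0.05, 15 genes were higher and 0 lower, against 4.84% and 6.02% of all kept genes. By DESeq2, 1 of the 78 was called higher, against 0.0916% of all genes it tested. In 11 genes, Rps4x and Rps9 among them, all 4 MUT libraries were above all 4 WT libraries, against 3.37% of all kept genes, and in 0 were they all below, against 3.72%. The KO and MUT comparisons share the WT libraries.

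Without the WT libraries of 375 days the median was near 0. Both subsets that leave them out hold 1 WT library, replicate 1, so its own deviation sets the value and its spread is assumed to be like that of the other groups. Among libraries under 310 days the MUT over WT median was -0.0048, with 35 of 78 genes above 0. In libraries labelled female it was 0.00088, with 40 of 78 above 0. With age in the model, where the age term rests largely on the same WT library, it was -0.0046. With the striatal level in the model it was 0.04, with 56 of 78 above 0. Without WT replicate 1 it was 0.11, with 9 genes called higher, against 3.18% of all genes tested. Whether age or the striatal signal of those 3 libraries has a part in it was not tested beyond these fits.

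Rps4x had the smallest p of the 78 in MUT, with a log2 fold change of 0.23 over WT (SE 0.05, adjusted p = 0.310). Its CPM in MUT, 131 ± 5.40, was close to the 133 ± 2.12 in KO and above the 110.5 ± 7.35 in WT. Rps4l, its paralog, had the largest fold change of MUT over WT, 0.29 (SE 0.15, adjusted p = 0.511). It was at 16.9, 19.7, 18.0 and 20.2 CPM in MUT, 13.7, 16.6, 16.2 and 17.8 in KO, and 20.7, 11.2, 10.6 and 12.9 in WT. WT replicate 1 was the highest of the 12 libraries and the other 3 WT libraries were the lowest, so under 310 days the fold change turned to -0.12. Rps27l had the lowest fold change of MUT over WT, -0.16 (SE 0.15, adjusted p = 0.702).

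By group means over all 12 libraries, MUT stood between KO and WT for most of the genes. Among libraries under 310 days, where WT is replicate 1 alone, MUT and WT were nearly level. There the MUT over WT median was -0.0048, with 35 of 78 genes above 0. Set against KO, 75 of the 78 were below 0 in MUT and 0 passed the test (edgeR quasi-likelihood), nor did any by DESeq2, which called 15 genes in all and 0.0589% of those it tested higher. Over all kept genes 48.2% were above 0 and 0.00654% were called, all of those lower. The median log2 fold change of MUT over KO was -0.10, against -0.0040 over all kept genes. At an unadjusted p under 0.05, 29 genes were lower and 0 higher in MUT, against 2.12% and 3.56% of all kept genes. In 20 genes all 4 MUT libraries were below all 4 KO libraries, against 1.85% of all kept genes, and in 0 were they all above, against 3.37%. Other short genes shared much of this. All MUT libraries were below all KO libraries in 11 of 51 nuclear-encoded subunits of oxidative phosphorylation, with 47 of the 51 below 0. The same held in 12 of 129 other genes under 1000 bases with a CPM at or above the members' lower quartile, with 118 below 0. By group means, 67 of the 78 were ordered KO, MUT, WT from high to low, 9 KO, WT, MUT and 2 MUT, KO, WT.

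The ages of MUT and KO overlap, and the WT libraries enter this comparison only through the shared sex term, scaling and spread. With only MUT and KO fitted the median was -0.097. Whichever library was left out, the median of MUT over KO stayed between -0.14 and -0.087. Under 310 days it was -0.095, but that subset drops only WT libraries and keeps every MUT and KO library, so it is not a separate check. The median was -0.069 in libraries labelled female. In those labelled male, where MUT is replicate 3 alone, it was -0.12.

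The members with the smallest p in MUT over KO, named after their values were seen, were 3 small-subunit genes. Rps26 was at 52.1, 52.9, 57.5 and 56.8 CPM in MUT, 64.7, 62.9, 62.6 and 62.1 in KO, and 57.5, 52.5, 56.0 and 53.5 in WT. The log2 fold change of MUT over KO was -0.20 (SE 0.05, adjusted p = 0.717). In this gene MUT and WT overlapped and KO stood apart from both.

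Rps10 and Rps19 had the same shape. Rps10 averaged 44.5 ± 1.59 CPM in MUT, 50.01 ± 1.36 in KO and 44.0 ± 1.90 in WT, with a log2 fold change of MUT over KO of -0.18 (adjusted p = 0.717). Rps19, which is mutated in Diamond-Blackfan anaemia, averaged 51.5 ± 2.08 CPM in MUT, 58.2 ± 1.36 in KO and 51.8 ± 3.35 in WT, with a log2 fold change of MUT over KO of -0.19 (adjusted p = 0.717).

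At the ends of this comparison stood again the low-abundance paralogs. Rps27l was at 7.16, 6.03, 4.82 and 6.02 CPM in MUT, 8.35, 6.45, 8.87 and 6.59 in KO, and 6.44, 6.62, 6.52 and 5.97 in WT. MUT and KO overlapped, and the log2 fold change of MUT over KO was -0.37 (SE 0.14, adjusted p = 0.794). Rps4l had the highest, 0.13 (SE 0.14, adjusted p = 0.988). Rps27, the main copy, followed the other members, with 80.3 ± 4.16 CPM in MUT, 82.6 ± 1.62 in KO and 68.6 ± 5.96 in WT. Rpl41, the shortest protein of the set, averaged 94.9 ± 2.73 CPM in MUT, 104 ± 5.55 in KO and 92.5 ± 6.31 in WT.

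Ribosomal protein genes are short, and other short genes had medians in the same direction. The median summed exon length of the 78 was 693.5 bases, against 2871 over all kept genes. Outside the 78, the median log2 fold change of KO over WT was 0.10 in genes under 500 bases, 0.08 from 500 up to 1000, 0.05 from 1000 up to 2000, 0.0065 from 2000 up to 4000 and -0.05 at 4000 and over. For MUT over KO the same bins gave -0.10, -0.06, -0.03, -0.0049 and 0.03, and for MUT over WT 0.0094, 0.02, 0.03, 0.0015 and -0.02.

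In the fit to all 12 libraries the median of the 78 in KO over WT, 0.17, lay above that of each of these bins. Other genes of 328 to 2040 bases, the range that holds all members but Rps15a, numbered 4550 and had a median of 0.06, with 65.9% above 0. With a CPM at or above the members' lower quartile (51.2 CPM), 720 remained and their median was 0.06, with 76.5% above 0. The closest set, 129 other genes under 1000 bases at that level, had a median of 0.09, with 113 of 129 above 0 and 1 called higher. For MUT over WT that set's median was 0.02, and for MUT over KO -0.06, against 0.07 and -0.10 in the 78.

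Without the WT libraries of 375 days the gap was smaller. Among libraries under 310 days, with WT replicate 1 alone as WT, the KO over WT median of the 78 was 0.09, against 0.11 in other genes under 500 bases, 0.07 from 500 up to 1000 and 0.06 from 1000 up to 2000. Other genes up to 2040 bases had a KO over WT median of 0.06 in that subset, 0.05 in libraries labelled female and 0.05 with age in the model, where the 78 had 0.09, 0.08 and 0.08. Without WT replicate 1 the values were 0.22 in the 78 and 0.06 in these other genes.

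Among the 78 themselves the KO over WT median was 0.18 in the 15 members under 500 bases, 0.18 in the 46 from 500 up to 1000 and 0.17 in the 17 of 1000 and over. The 3 members over 2000 bases lay lower, Rps15a at 0.06, Rpl22 at 0.03 and Rpl5 at 0.10. Some shorter members lay as low, with Rpl39 (394 bases) at 0.04 and Rpl15 (1841 bases) at 0.03. In MUT over KO the same 3 classes of length had medians of -0.12, -0.11 and -0.08. With the smooth trend on length of the other genes subtracted from every library, the median of the 78 was 0.10 in KO over WT, with 76 of 78 above 0 and 0 called. It was 0.06 in MUT over WT and -0.05 in MUT over KO. Whether RNA quality or library preparation has a part in the length trend was not tested.

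**Figure D5:**
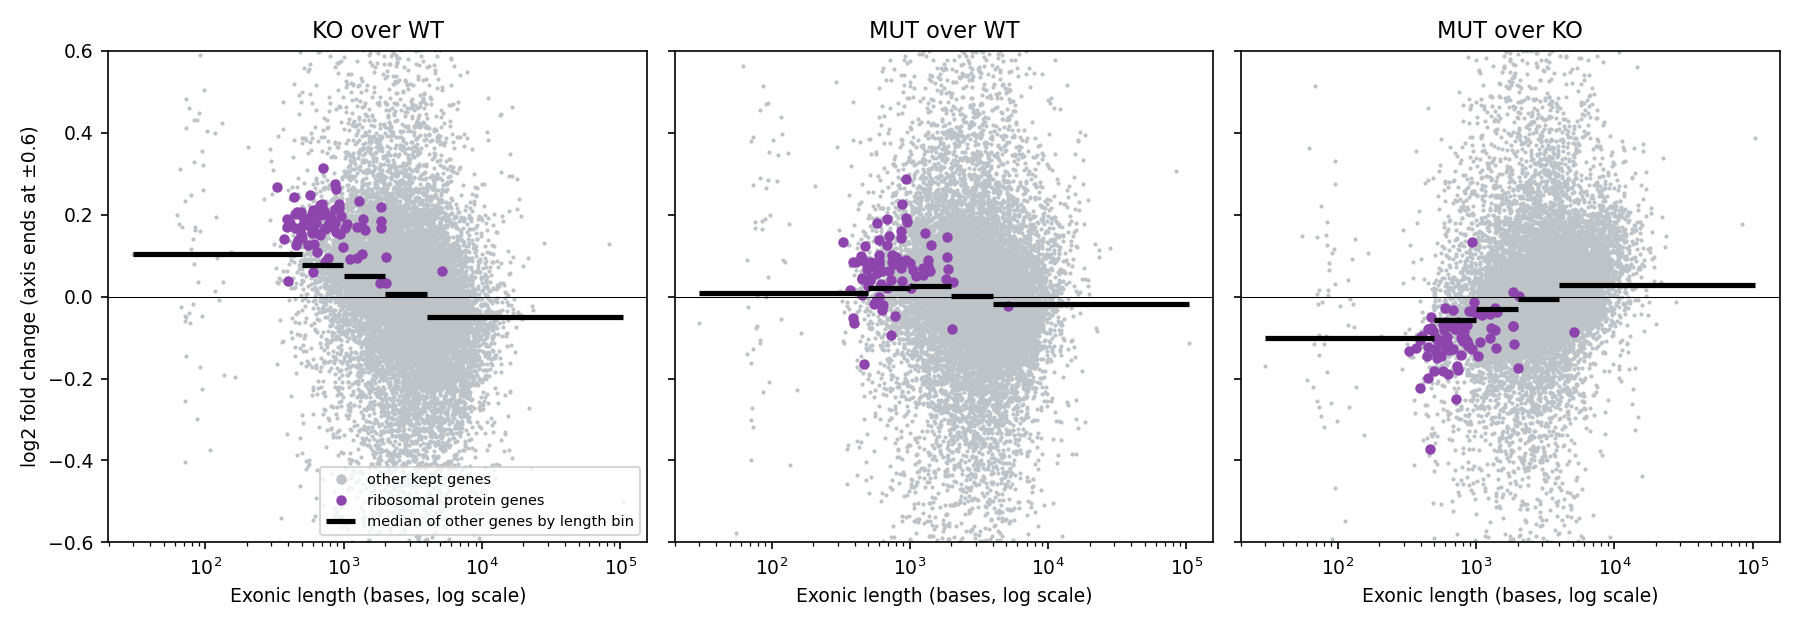
Log2 fold change of each kept gene against its summed exon length (bases, log scale) in KO over WT, MUT over WT and MUT over KO; purple points are the 78 ribosomal protein genes, grey points the other genes (vertical axis ends at ±0.6), and black lines the median of the other genes in 5 length bins. Most purple points sit above the black lines in the first panel and below them in the third.

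The rest of the translation machinery was read from lists of its parts. The 8 kept genes of cytosolic ribosomal proteins that the naming rule leaves out all had a KO over WT log2 fold change above 0, with a median of 0.14 and 0 called. Rack1, the scaffold on the small subunit, averaged 148 ± 3.92 CPM in KO, 145 ± 2.29 in MUT and 134 ± 6.92 in WT.

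Other TOP mRNAs had medians close to those of the ribosomal proteins against WT, and one nearer to 0 in MUT over KO. Of the 25 in the list, which shares genes with the other lists, all 25 were above 0 in KO over WT, with a median of 0.14 and 0 called, and 17 had an unadjusted p under 0.05. In MUT over WT 22 of 25 were above 0, with a median of 0.07, and in MUT over KO 23 of 25 were below, with a median of -0.05. Eef1a1, the main elongation factor outside neurons and muscle, averaged 1314 ± 32.5 CPM in KO, 1273 ± 46.7 in MUT and 1194 ± 46.1 in WT, with a log2 fold change in KO of 0.14 (adjusted p = 0.120). Gas5, a non-coding TOP transcript that hosts small nucleolar RNAs, averaged 105 ± 5.76 CPM in KO, 101 ± 2.53 in MUT and 88.0 ± 5.23 in WT, with a log2 fold change in KO of 0.24 (adjusted p = 0.0622).

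The 9 elongation factors had a KO over WT median of 0.11 with all 9 above 0, and 0 called. Eef1a2, the form of neurons and muscle, averaged 1195 ± 63.1 CPM in KO, 1162 ± 67.8 in MUT and 1185 ± 73.9 in WT, a difference within the spread. Initiation factors (35 genes) had a median of 0.04 with 26 above 0, and ribosome biogenesis factors (48 genes) 0.05 with 35 above 0, with 0 called in either. In MUT over WT the medians of these 3 lists were 0.04, 0.06 and 0.06, and in MUT over KO -0.03, -0.0065 and 0.00040.

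Of the 25 regulators of TOP mRNA translation and the mTOR pathway, 10 were above 0 in KO over WT, with a median of -0.05. Of these, 1 passed the test. Pdpk1, the kinase that activates Akt and S6 kinase, fell to 140.1 ± 5.03 CPM in KO, against 174 ± 7.68 in WT, with MUT at 154 ± 4.16 (log2 fold change in KO -0.31, SE 0.05, adjusted p = 0.0247). Mtor averaged 148 ± 3.74 CPM in KO, 153 ± 5.24 in MUT and 164 ± 2.61 in WT, with a log2 fold change in KO of -0.14 (adjusted p = 0.110). Larp1 averaged 175 ± 3.54 CPM in KO, 173 ± 6.32 in MUT and 181 ± 3.41 in WT (adjusted p = 0.574 in KO). The exon length of Pdpk1, 7160 bases, falls in the bin of 4000 bases and over, whose KO over WT median was -0.05, with a lower quartile of -0.15. Whether length has a part in the Pdpk1 value was not tested.

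Short genes of the mitochondrion had KO over WT medians nearer to 0. The 77 mitochondrial ribosomal protein genes had a KO over WT median of 0.06, with 62 above 0, and the 51 nuclear-encoded subunits of oxidative phosphorylation one of 0.09, with 47 above 0, and 0 called in either. Their medians were 0.01 and 0.0082 in MUT over WT, and -0.04 and -0.07 in MUT over KO. The difference between these lists and the 78 was not tested.

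Markers of other cells differed along some of the same groups. The 15 myelin genes had a KO over WT median of 0.29, with all 15 above 0 and 0 called, and a MUT over KO median of -0.14 with all 15 below 0. Their level by library ranged from 0.04 to 0.32 in KO, -0.13 to 0.15 in MUT and -0.36 to 0.18 in WT. Of the 15 microglia genes 12 were above 0 in KO over WT, with a median of 0.14, and 3 were called higher, Ctss (log2 fold change 0.39, adjusted p = 0.0263), Tyrobp (0.57, adjusted p = 0.0440) and C1qa (0.29, adjusted p = 0.0499). The 14 kept genes of excitatory cortical neurons had a median of -0.08, with 5 above 0 and 0 called. The striatal markers had a median of -1.28 in KO over WT, with all 18 below 0 and 0 called. The 10 kept choroid plexus genes had a median of -0.42, with 8 below 0 and 0 called. The part of these cells in the ribosomal protein result was not tested.

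The lists were read again, a choice made after seeing the data, among libraries under 310 days, where WT is replicate 1 alone. There the KO over WT median was 0.06 in the other TOP mRNAs, with 21 of 25 above 0, and 0.05 in the elongation factors. It was 0.01 in the initiation factors, -0.02 in ribosome biogenesis, 0.01 in the mitochondrial ribosome and 0.07 in oxidative phosphorylation. The myelin median was 0.42 and the microglia median 0.28, both further from 0 than with all libraries. The MUT over KO median of the other TOP mRNAs was -0.04 and that of myelin -0.15. The subset holds every MUT and KO library, so these MUT over KO values are not a separate check. In this subset Pdpk1 had a KO over WT log2 fold change of -0.30 (edgeR adjusted p = 0.195), Ctss 0.46 (0.155), Tyrobp 0.86 (0.0789) and C1qa 0.36 (0.259), so none of the 4 passed the test there. Of the ribosomal protein genes called with all libraries, Rps4x had 0.16, Rps9 0.19 and Rpl37 0.10 (adjusted p = 0.526, 0.449 and 0.719).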

How the data were processed

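The authors deposited 1 table of unnormalized counts of reads in each gene, for 12 libraries of mouse cortex, with gene IDs, symbols, exon coordinates and summed exon length, per the file headers. Libraries were directional (strand-preserving), per the labels' protocols. The submitters' processing notes name mm10, R 4.1.2 and DESeq2 1.34.0; which aligner, counter and strand setting were used is not stated there, so reads of near-identical copies and overlapping genes are uncertain. No pair of libraries matched within sampling noise (over 66 pairs, chi-square divided by its degrees of freedom was at least 3.55).

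Counts were filtered with filterByExpr by group (minimum count 10, minimum total 15) and TMM-scaled. A model with group and labelled sex was fitted to all 12 libraries in edgeR 4.0.16 under R 4.3.3, with robust quasi-likelihood tests, 8 residual degrees of freedom and Benjamini-Hochberg adjustment over 15298 genes at 0.05. Genes without a symbol (1049 in the table) stayed in. CPM values use TMM-scaled library sizes and TPM the summed exon length. The fit was tested on simulated data, in which the planted changes were larger than the differences of the members. No shift with age, tissue or length was simulated, so that test does not speak to differences of this size or kind. A 95% interval is that of the fitted log2 fold change.

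The members, the gene lists (other ribosomal proteins, elongation and initiation factors, other TOP mRNAs, their regulators, ribosome biogenesis, mitochondrial ribosome, oxidative phosphorylation, pseudogenes, cell markers) and the tests were chosen with earlier results of these data known. Only 3 of the 33 pseudogenes were kept for testing, with 0 called. Genes named are Grn, members past the threshold, the highest and lowest fold change per comparison, a set list of well-known members, the extremes of TPM and list genes past the threshold; 1 member past it is not reported here. Other genes named from the lists and the members nearest the threshold or with the smallest p were chosen after their values were seen. Alternatives were other scalings, filters, DESeq2 1.42.0, limma-voom (limma 3.58.1), other covariates, subsets of libraries, removal of a spline trend (4 degrees of freedom) on length, and each library left out.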

Additional observations from a re-analysis of the deposited data

Results flagged for a closer look

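In 75 groups of 4 libraries tested for a value far from the others (22 named members, the median deviation of the 78 genes and summary measures), 4 were found. Chance alone gives about 1 in 20 for groups that are independent, which is close to this count. These groups share libraries and the members vary together, so that comparison cannot decide whether the 4 arose by chance. In WT, replicate 1 stood apart in the median deviation of the 78 genes, at 0.0085 on the log2 CPM scale, against -0.12, -0.13 and -0.13 in the other 3. The same library stood apart upward among WT in Rps6 (44.8 CPM) and Rpl37 (84.3 CPM), but not in the share of counts or the summed TPM of the 78. It is the WT library of 287 days, labelled female and without raised striatal markers, and the part of each of these was not tested. In MUT, replicate 1 stood apart in Rps9, at 126 CPM against 118 to 119 in the other 3 MUT libraries; it is also 1 of the 3 libraries with high choroid plexus transcripts, and whether this has a part in it was not tested.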

How the results depend on the processing

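The KO over WT median stayed above 0 under all 30 alternatives, and the number of calls did not hold. Against 4 genes called higher, the count was 35 with DESeq2 (1.43% of all genes tested called higher), 38 in libraries labelled male (3.51%), 20 without a covariate (0.601%) and 2 with scaling factors from other genes of the members' length range (0.131%). It was 0 with limma-voom, with sex and age, with sex and the striatal level, in libraries labelled female, under 310 days, without the 3 libraries high in choroid plexus genes, with the length trend removed and with only the 2 groups compared. With each library left out it ranged from 0 to 52, over 1 to 1620 calls among all genes for all alternatives. The KO over WT median of 0.17 became 0.083 with sex and age, 0.077 in libraries labelled female, 0.23 in those labelled male, 0.091 under 310 days and 0.098 with the length trend removed. In MUT over WT the median of 0.071 turned to -0.0046 with sex and age and -0.0048 under 310 days, and was 0.00088 in libraries labelled female and 0.038 with the striatal level; calls were 1 with DESeq2 and 0 to 9 with each library left out. The MUT over KO median became -0.045 with the length trend removed. Of the 78, 13 changed sign in at least 1 alternative in KO over WT (the lowest being Rps4l, -0.37), 49 in MUT over WT and 14 in MUT over KO. Among those named for their fold change were Rpl15 in KO over WT (-0.014 with sex and age, -0.0066 labelled female), Rps4l in MUT over WT (-0.14 with sex and age, -0.13 labelled female, -0.12 under 310 days) and Rps27l in MUT over WT (0.0077 with sex and age). The cause was not tested. Leaving out robust estimation, chosen after seeing the data, gave 3 calls among the 78 in KO over WT, against 0.144% of all genes called higher. Without WT replicate 1 in the count, also chosen then, all KO libraries lay above WT in 67 members (12.5% of all genes) and all MUT libraries in 40 (12%).

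The replicate numbers did not pair the libraries, since 1 of 12 same-numbered correlations was over 0.1. With the replicate block 0 of the 78 genes were called in KO over WT, among 2 calls over all genes, and the median was 0.18.

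With 4 libraries a group and 1 WT library under 310 days, age, dissection and genotype cannot be told apart in full. Depth limits Rps27l, at 6.66 CPM, more than the other members, which have higher counts.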
